A study of Homo sapiens with 6 samples.

Results

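A set of 10 genes of the YAP/TAZ-TEAD axis was followed in HCCLM3 cells, a human hepatocellular carcinoma (HCC) line of high metastatic potential, with and without overexpressed *PON1*. The genes were matched by symbol in a table of 20381 genes, and all 10 were found. They are 7 genes known as YAP/TAZ-TEAD targets (*THBS1*, *CCN1*, *CCN2*, *ANKRD1*, *AMOTL2*, *AJUBA* and *LATS2*), the coactivators *YAP1* and *WWTR1* (TAZ), and the DNA-binding factor *TEAD1*. The set was drawn up when differences between the PON1-OE and NC libraries had already been seen. Fold changes of these 10 genes are therefore given as a description, without p-values.

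The 3 PON1-OE libraries came from HCCLM3 cells that had been infected with a lentivirus for stable expression of *PON1*, and the 3 NC libraries from HCCLM3 cells with the empty-vector lentivirus. The study selected both lines with puromycin. Whether a line was a clone or a pool, and whether the replicates were separate cultures, is not given in the sources used here, so the error terms measure the spread between these libraries. The series text gives 15% fetal bovine serum and lysis 24 h after transfection, whereas the paper describes stable lines and another serum content. Poly(A) RNA was sequenced, and the authors deposited estimated counts per gene. *PON1*, which encodes a secreted lactonase of high-density lipoprotein, had 0, 2 and 3 counts in the NC libraries against 155, 181 and 167 in the PON1-OE libraries, at least 60-fold higher than the floor of 3 counts per library.

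Library totals were 15706672 to 17948383 counts, and counts were scaled by the TMM method and given per 1e+06 counts of the library (CPM). Values of single libraries follow the order of replicates 1 to 3. A floor of 3 counts was 0.166 to 0.192 CPM, which covers counting error only. The labels name the line together with the word hepatocyte. Of 12 markers of the hepatocyte lineage, 9 had over 3 counts in every library. *KRT8* (2410 ± 199 CPM in NC, SD, n = 3) and *HNF4A* (78.6 ± 5.36 CPM in NC) were present, whereas *ALB* (0.578 ± 0.201 CPM in NC) was low and *SERPINA1* and *TTR* were at or under the floor. The leukocyte markers *PTPRC*, *CD3E*, *LYZ* and *MS4A1* had 0 counts in every library, and *CD68* was the 1 of 6 leukocyte markers with over 3 counts in each. Of 7 fibroblast markers 2 had over 3 counts in every library, *LUM* (13.7 CPM in NC) and *DCN* (4.27 CPM in NC), and *PDGFRA* was at 0. The summed level of the 7 was 16.0 to 21.0 CPM in NC against 16.7 to 20.2 CPM in PON1-OE. Of 5 endothelial markers 3 had over 3 counts in every library, and *CDH5* was near 0. The 3 were *PECAM1* (13.1 CPM in NC against 15.1 CPM in PON1-OE), *KDR* (9.24 against 10.9 CPM) and *VWF* (0.48 CPM in both). The summed level of the 5 was 22.1 to 24.8 CPM in NC against 25.3 to 28 CPM in PON1-OE, without overlap. The summed leukocyte list was at 206 to 227 CPM in NC against 224 to 248 CPM in PON1-OE. The part of these lists in the results was not tested. Differences between the groups were tested with edgeR's quasi-likelihood test over 11958 genes with Benjamini-Hochberg adjustment. A gene was called at an adjusted p under 0.05, which 81 genes reached, 0.677% of those tested, 60 higher (0.502%) and 21 lower (0.176%) in PON1-OE. Without NC replicate 3 the number called was 11, and without PON1-OE replicate 3 it was 18.

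YAP and TAZ are transcriptional coactivators that do not bind DNA themselves. In the nucleus they bind TEAD factors, which recognize the sequence GGAATG, and switch on genes of matrix, adhesion and growth. The Hippo kinases MST1 and MST2 activate LATS1 and LATS2, which phosphorylate YAP and TAZ and hold them in the cytoplasm. *LATS2* and *AMOTL2* are both targets and inhibitors of YAP and TAZ. In the liver the axis controls organ size, and YAP activity is often raised in HCC.

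Promoter sequences show where the TEAD motif lies in these genes. RefSeq windows on GRCh38.p14, from 250 bases before to 50 bases after an annotated start, were given for 8 of the 10 genes, in 11 windows. The 2 without a window were *CCN1* and *TEAD1*. The letters GGAATG, or CATTCC for the opposite strand, were found in 7 of the 11 windows and in 7 of the 8 genes. Of all 35116 windows of this length, 14.0% hold a match. *CCN2* had 3 matches, a number reached in 0.128% of all windows, and *ANKRD1* had 2, with 2 or more in 1.37%. *THBS1*, *AMOTL2*, *AJUBA*, *YAP1* and *LATS2* had 1 match each, and both windows of *WWTR1* had none.

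The matches of *CCN2* began 169, 104 and 95 bases before the start, those of *ANKRD1* 220 and 128 bases before it, and that of *THBS1* 46 bases before it. In *AJUBA* and *AMOTL2* the match lay 59 and 69 bases before the more downstream of their 2 starts, and in *YAP1* 162 bases before the start. The match of *LATS2* lay just downstream of its start. For AP-1 the pattern TGANTCA, with any base at N, was searched on both strands. It was found in *ANKRD1* alone of the 8 genes, as TGATTCA 195 bases before its start, and in 7.71% of all windows. The CArG box bound by SRF was found in none of the 11 windows and in 1.29% of all. The stretches that hold these matches are printed below from the strand of the gene, with the TEAD motif in capitals. They are shown so that the matches can be set beside the values of each gene; a match is no evidence of binding. They come from chr15:39580829-39581078 (plus strand, *THBS1*), chr6:131951373-131951622 (minus strand, *CCN2*), chr10:90921088-90921337 (minus strand, *ANKRD1*), chr14:22976843-22976962 (minus strand, *AJUBA*), chr3:134374448-134374567 (minus strand, *AMOTL2*) and chr11:102110197-102110346 (plus strand, *YAP1*).
THBS1: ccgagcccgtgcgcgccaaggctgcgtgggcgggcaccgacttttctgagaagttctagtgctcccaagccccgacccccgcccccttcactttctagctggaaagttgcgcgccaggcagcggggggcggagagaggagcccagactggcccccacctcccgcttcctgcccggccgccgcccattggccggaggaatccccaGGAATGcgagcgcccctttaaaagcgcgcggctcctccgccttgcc
CCN2: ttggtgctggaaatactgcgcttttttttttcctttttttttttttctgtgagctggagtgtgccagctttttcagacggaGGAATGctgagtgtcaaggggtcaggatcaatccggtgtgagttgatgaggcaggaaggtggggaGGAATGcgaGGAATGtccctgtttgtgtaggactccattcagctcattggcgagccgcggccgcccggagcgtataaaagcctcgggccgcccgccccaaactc
ANKRD1: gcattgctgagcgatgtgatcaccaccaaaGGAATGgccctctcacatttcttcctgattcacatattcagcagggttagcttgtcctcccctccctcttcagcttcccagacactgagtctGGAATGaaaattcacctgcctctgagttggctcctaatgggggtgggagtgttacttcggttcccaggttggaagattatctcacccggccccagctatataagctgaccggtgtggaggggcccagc
AJUBA: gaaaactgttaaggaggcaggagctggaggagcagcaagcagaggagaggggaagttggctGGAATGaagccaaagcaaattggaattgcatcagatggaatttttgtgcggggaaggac
AMOTL2: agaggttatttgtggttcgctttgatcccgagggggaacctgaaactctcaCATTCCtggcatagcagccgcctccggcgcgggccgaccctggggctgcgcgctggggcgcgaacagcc
YAP1: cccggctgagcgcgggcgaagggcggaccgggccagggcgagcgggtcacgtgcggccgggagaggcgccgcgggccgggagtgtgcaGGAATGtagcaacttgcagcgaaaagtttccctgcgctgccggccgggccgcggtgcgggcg

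**Figure D1:**
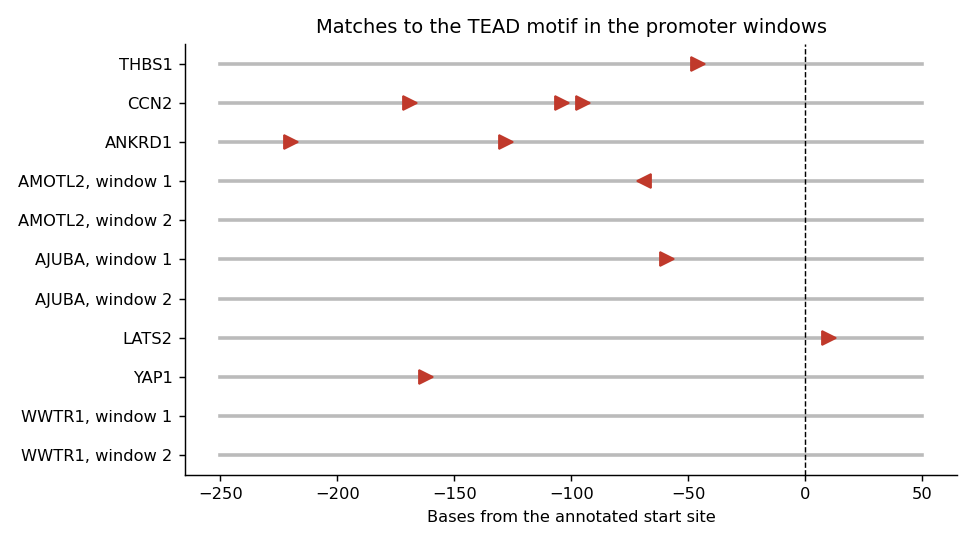
Position of each match to the TEAD motif (triangles, pointing right for the strand of the gene and left for the opposite strand) in the 11 promoter windows, in bases from the annotated start site (dashed line). *CCN2* has 3 matches, *ANKRD1* 2, and 6 of the 7 windows with a match have it before the start.

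*THBS1* was lower in PON1-OE than in NC in every library. It encodes thrombospondin-1, a secreted matrix protein that inhibits angiogenesis and activates latent TGF-β. The gene (ENSG00000137801) lies on the plus strand of chromosome 15, from 39581079 to 39599466 on GRCh38 in GENCODE v29. Its counts were 884, 989 and 941 in the NC libraries against 699, 685 and 709 in the PON1-OE libraries. In CPM these were 53.5, 54.7 and 55.2 in NC against 42.6, 42.8 and 45.3 in PON1-OE. The groups did not overlap, and the spread within each was small, with a coefficient of variation (CV) of 1.55% in NC against 3.41% in PON1-OE. Medians over genes with at least 5 CPM were 4.64% and 5.25%. The means were 54.5 ± 0.844 and 43.6 ± 1.49 CPM (SD, n = 3), a log2FC of −0.32 (standard error 0.0589), or 20.1% less in PON1-OE. In bulk RNA, fewer cells that express a gene and less RNA per cell cannot be told apart.

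By size, 342 of the 11958 genes had a lower log2FC than *THBS1*, and among the 4185 genes whose mean level lay within a factor of 2 of its own, 3 did. *THBS1* was the one gene of the 10 that was called, where 0.176% of all genes were called lower. Since the gene set was chosen on this contrast, nothing is read from that count or from the rank of any of the 10. The call was lost without NC replicate 3 and without PON1-OE replicate 1, and the log2FC stayed between −0.35 and −0.30 over all 12 alternatives. At the study's fold threshold of 0.585 on the log2 scale, 0 of the 10 genes were called, with 0.0502% of all genes (0.0251% lower and 0.0251% higher). *FSIP1*, on the opposite strand, shares 448 exonic bases with *THBS1* and had 4 to 12 counts per library, and AC037198.2 shares 411, with no count of its own in the table. Antisense genes also overlap exons of *CCN2*, *YAP1* and *WWTR1*. Whether counting used strand is not given in the sources used here, so reads of such partners cannot be told apart.

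The CCN proteins are secreted matricellular ligands of integrins, and *CCN1* and *CCN2* are the most used readouts of YAP activity. *CCN1* (formerly *CYR61*) had 21.4, 22.6 and 18.5 CPM in the NC libraries against 19.4, 18.5 and 16.5 CPM in the PON1-OE libraries. The lowest NC library lay within the range of the PON1-OE libraries, and the log2FC was −0.20 (standard error 0.0945). *CCN2* (formerly *CTGF*), with 3 TEAD matches in its promoter, had 7.63, 6.85 and 7.92 CPM in NC against 7.55, 7.07 and 6.83 CPM in PON1-OE. These libraries were intermixed, and the log2FC was −0.06 (standard error 0.13), between −0.12 and −0.02 over the alternatives. Levels of *CCN2* differed less between the groups than between libraries of one group. How the number of TEAD matches relates to the log2FC of a gene was not tested.

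*ANKRD1* encodes a nuclear ankyrin repeat protein induced by stretch and by YAP. It had 44, 62 and 57 counts in the NC libraries against 34, 32 and 34 in the PON1-OE libraries. In CPM these were 2.66, 3.43 and 3.34 in NC against 2.07, 2.0 and 2.17 in PON1-OE. The highest PON1-OE library was below the lowest NC library. The log2FC of −0.60 (standard error 0.225) was the lowest of the 10, 33.9% less in PON1-OE, but it rests on the fewest counts, with a CV of 13.3% in NC. It was called in no setting, with a log2FC between −0.70 and −0.53. DESeq2 gave no adjusted p even to more strongly expressed genes such as *STK3*, so the lack of a call there is not read as a test of *ANKRD1*. Among the 1423 genes within a factor of 2 of its level, 21 had a lower log2FC.

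*LATS2*, the kinase that phosphorylates YAP and TAZ, had 16.4, 15.4 and 17.3 CPM in the NC libraries against 13.4, 13.5 and 16.0 CPM in the PON1-OE libraries. PON1-OE replicate 3 lay inside the NC range while the other two were below it. The log2FC was −0.19 (standard error 0.10), and between −0.28 and −0.14 over the alternatives. *AJUBA*, a LIM protein that binds LATS kinases and restrains them, had 179, 169 and 182 CPM in NC against 163, 170 and 161 CPM in PON1-OE. Here one PON1-OE library just exceeded the lowest NC library, and the log2FC was −0.10 (standard error 0.0425). *AJUBA* shares 50 exonic bases with AL132780.3, which had 0 to 29 counts against 2528 to 3107 for *AJUBA*. *AMOTL2*, an angiomotin that binds YAP at cell junctions, had 79.7, 80.1 and 75.9 CPM in NC against 81.9, 75.6 and 80.8 CPM in PON1-OE, with a log2FC of 0.02 (standard error 0.0517). Its libraries were intermixed, and the sign of its log2FC was negative without NC replicate 3.

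**Figure D2:**
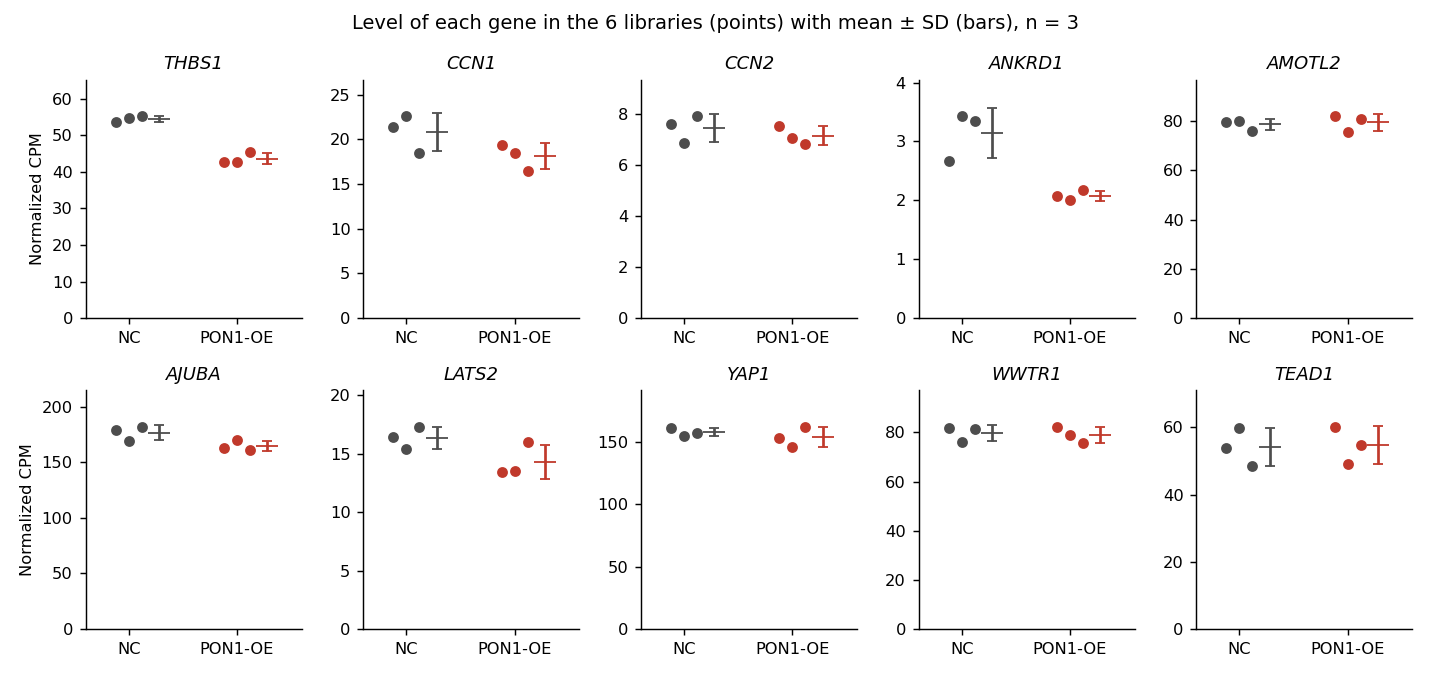
TMM-normalized CPM of the 10 genes in each of the 3 NC (gray) and 3 PON1-OE (red) libraries, with the mean and SD beside the points and each axis starting at 0. The groups are apart in *THBS1* and *ANKRD1* and overlap in the other 8 genes.

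The factors that act on these targets showed no separation of the groups. *YAP1* had 161, 155 and 157 CPM in the NC libraries against 153, 146 and 162 CPM in the PON1-OE libraries, a log2FC of −0.04 (standard error 0.0446). *WWTR1* had 81.9, 76.0 and 81.6 CPM in NC against 82.3, 79.0 and 75.8 CPM in PON1-OE, a log2FC of −0.01 (standard error 0.0527). *TEAD1* had 54.0, 59.8 and 48.6 CPM in NC against 60.2, 49.0 and 54.9 CPM in PON1-OE, a log2FC of 0.02 (standard error 0.0769). In each of these 3 genes the libraries of both groups were intermixed, and *TEAD1* varied most, with a CV of 10.4% in NC against 10.2% in PON1-OE. Over the alternatives their log2FC lay between −0.08 and 0.10, and the signs of *WWTR1* and *TEAD1* changed with the library left out. Transcript levels do not show how much YAP or TAZ protein was phosphorylated or nuclear.

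Compared per length of merged exons, the order of the 10 genes in NC was *AJUBA* (29.5 CPM per kb), *YAP1* (25), *AMOTL2* (13.1), *WWTR1* (9.49), *CCN1* (8.48), *THBS1* (5.95), *TEAD1* (5.26), *CCN2* (3.19), *LATS2* (2.93) and *ANKRD1* (1.59). The NC libraries of *WWTR1* and *CCN1* overlapped on this scale, as did those of *CCN2* and *LATS2*, and the other neighbors did not. The level of *YAP1* per kb was 2.64 ± 0.0803 times that of *WWTR1* in NC against 2.60 ± 0.223 times in PON1-OE (SD, n = 3). *CCN1* was at 2.68 ± 0.452 times *CCN2* in NC against 2.41 ± 0.103 times in PON1-OE.

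Read together, 8 of the 10 genes had a log2FC below 0, with 51.0% of all genes tested. The 10 were chosen on this contrast, so nothing is read from the counts, medians and means given here. Among the 7 targets, *ANKRD1* (−0.60) and *THBS1* (−0.32) lay lowest. In 2 of the 10 the PON1-OE libraries lay below all NC libraries, an arrangement found in 7.74% of all genes, and in 0 they lay above, with 8.32% of all genes. The median log2FC was −0.192 over the 7 targets and −0.013 over *YAP1*, *WWTR1* and *TEAD1*, with −0.0025 over all genes tested. When log2 CPM was centered on each gene's mean over the libraries, the mean over the 7 targets was 0.084 to 0.120 in the NC libraries and −0.126 to −0.091 in the PON1-OE libraries. For *YAP1*, *WWTR1* and *TEAD1* the same mean was −0.036 to 0.030 in NC against −0.081 to 0.058 in PON1-OE. All 7 targets were above their own mean in NC replicate 1, and none was in PON1-OE replicate 2, where *YAP1*, *WWTR1* and *TEAD1* were below their means too.

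**Figure D3:**
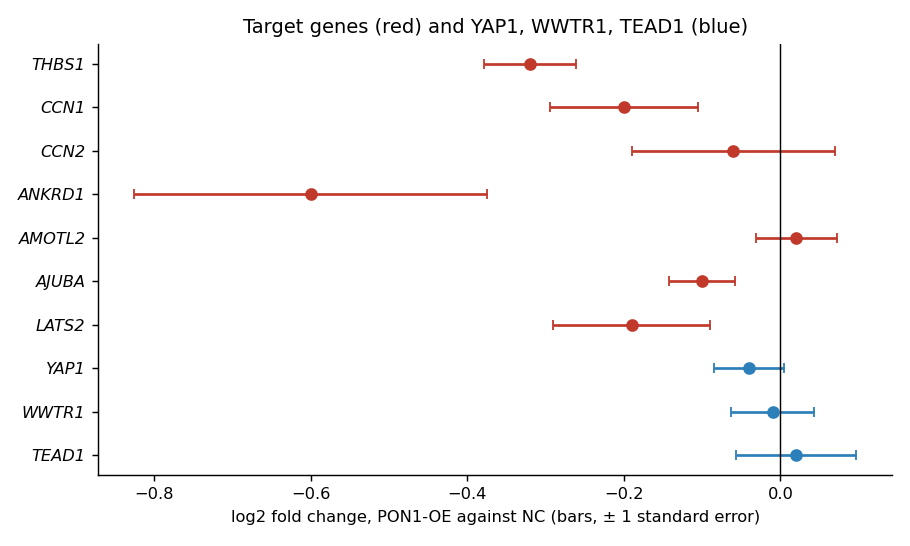
Log2 fold change of PON1-OE against NC for the 7 targets (red) and the 3 upstream factors (blue), with bars of ± 1 standard error from edgeR's quasi-likelihood fit. *ANKRD1* (−0.60) and *THBS1* (−0.32) lie farthest from 0, and the upstream factors lie within 0.04 of it.

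**Figure D4:**
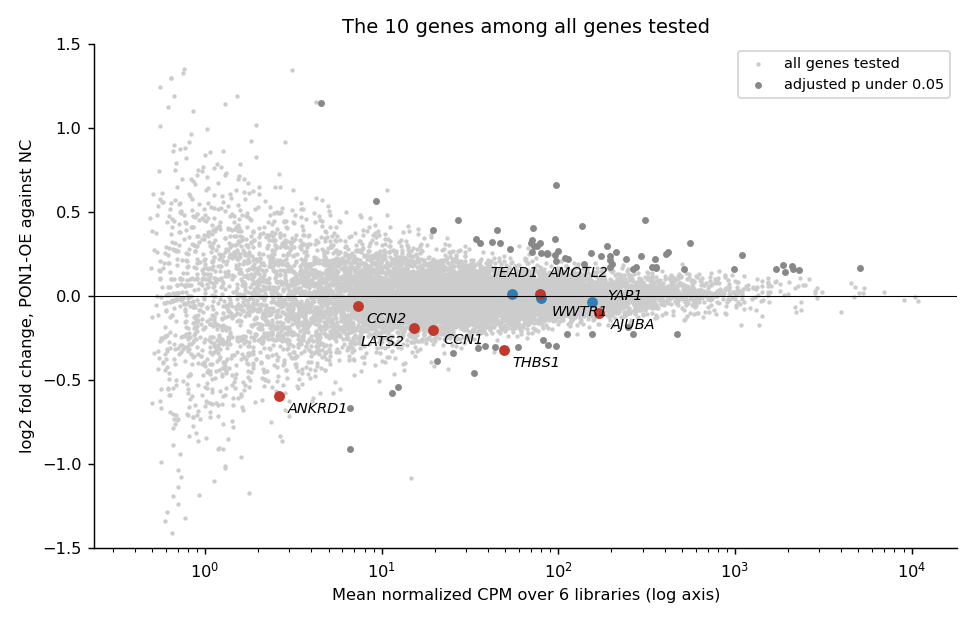
Log2 fold change against mean CPM (log axis) for all 11958 genes tested (light gray), those with an adjusted p under 0.05 (dark gray) and the 10 genes (red, targets; blue, upstream factors). *THBS1*, from a set chosen on this contrast, lies at the lower edge of genes of its level. In this plot 6 genes beyond 1.5 on either side are not drawn.

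The 5 genes whose centered log2 CPM lay closest to that of *THBS1* over the 6 libraries were *FAM200B*, *ACBD5*, *TAF12*, *AFG2A* and *CXCL5*, with a root mean square difference of 0.0295, 0.0352, 0.0432, 0.0451 and 0.0478. The median over all other genes tested was 0.189, and the 5 lie below it because they were picked as the smallest. None of the 5 is on the lists of pathway genes used here. Among the 9 other genes of the axis, *LATS2* was the closest (0.0975, rank 191) and *TEAD1* the farthest (0.213, rank 7846). With 6 libraries in 2 groups, this measure takes in both the step between the groups and the spread within them.

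The rest of the Hippo pathway was read from a list of 38 components, of which 32 were tested. In edgeR 0 of the 32 were called, as in limma-voom, with 0.677% of all genes called in edgeR. In DESeq2 0 were called too, but part of the list had no adjusted p there. *STK3*, *LATS1* and *FRMD6* were among those genes and could not be called, so the 0 in DESeq2 is not read as agreement. At an unadjusted p under 0.05 there were 7, 2 higher and 5 lower (21.9%, against 11.1% of all genes, 5.91% higher and 5.17% lower). This list and those below were chosen with earlier results of these data known, so nothing is read from their shares. The list had a median log2FC of −0.042, with 11 genes higher and 21 lower. The kinases upstream of YAP had a log2FC of −0.17 for *STK3* (MST2; standard error 0.069, adjusted p = 0.356), 0.01 for *STK4* (MST1; standard error 0.0478, adjusted p = 0.955) and −0.20 for *LATS1* (standard error 0.0869, adjusted p = 0.397) (all edgeR). In *STK3* and *LATS1* the PON1-OE libraries lay below all NC libraries, as in 8 of the 32 tested, with 7.74% of all genes. In 2 of the 32 they lay above, with 8.32% of all genes. Per length, *LATS2* was at 1.13 ± 0.138 times *LATS1* in NC against 1.13 ± 0.0809 times in PON1-OE. The adaptors of these kinases, *SAV1* (log2FC 0.16, standard error 0.144) and *MOB1A* (−0.09, standard error 0.0544), and the tumor suppressor *NF2* (−0.08, standard error 0.0874) had adjusted p of 0.749, 0.601 and 0.797 in the same test.

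*FRMD6*, an upstream activator of the kinases, had 19.4 to 24.0 CPM in NC against 26.0 to 27.6 CPM in PON1-OE, a log2FC of 0.30 (standard error 0.0855, edgeR adjusted p = 0.14). It passed the threshold without NC replicate 2 (adjusted p = 0.0383), within a range of 0.0383 to 0.526 over the alternatives that gave it an adjusted p. *VGLL3*, a TEAD cofactor that competes with YAP, had 28, 19 and 19 counts in NC against 13, 11 and 3 in PON1-OE, a log2FC of −1.18 (standard error 0.429, adjusted p = 0.276). Its groups did not overlap, but its counts were few. *MAP4K4*, a kinase that acts beside MST1 and MST2, had a log2FC of 0.14 (standard error 0.0474, adjusted p = 0.242).

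Of the TEAD partners, *VGLL4*, which displaces YAP from TEAD, was at 153 ± 1.55 CPM in NC against 149 ± 5.09 CPM in PON1-OE. The other TEAD genes were expressed as well, and per kb *TEAD4* (9.57 CPM per kb in NC) and *TEAD2* (8.23) were above *TEAD3* (5.79) and *TEAD1* (5.26). The NC libraries of *TEAD3* and *TEAD1* overlapped on this scale, whereas those of *TEAD2* and *TEAD3* did not. Their log2FC values were −0.09 for *TEAD2* (standard error 0.0898), 0.00 for *TEAD3* (standard error 0.0924) and −0.01 for *TEAD4* (standard error 0.0852), and none was called. Of the angiomotins, *AMOT* had 0 counts in every library and *AMOTL1* was at 0.899 ± 0.396 CPM in NC against 0.855 ± 0.199 CPM in PON1-OE.

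Of 22 other reported YAP/TAZ targets 19 were tested, 14 with a log2FC above 0 and 5 below, with a median of 0.064. *IGFBP3*, a carrier of insulin-like growth factors, had 67.9 to 70.2 CPM in NC against 76.5 to 88.6 CPM in PON1-OE (log2FC 0.23, standard error 0.0584, edgeR adjusted p = 0.0882), and it passed in DESeq2 (adjusted p = 0.0349) in a range of 0.0172 to 0.44.

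In the opposite direction, *TGFB2*, a TGF-β ligand, had 64.7 to 66.6 CPM in NC against 55.0 to 61.0 CPM in PON1-OE, a log2FC of −0.21 (standard error 0.057, edgeR adjusted p = 0.119). At an unadjusted p under 0.05 the list held 6 genes, 3 higher and 3 lower (31.6%, against 11.1% of all genes). Nothing is read from that share either.

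**Figure D5:**
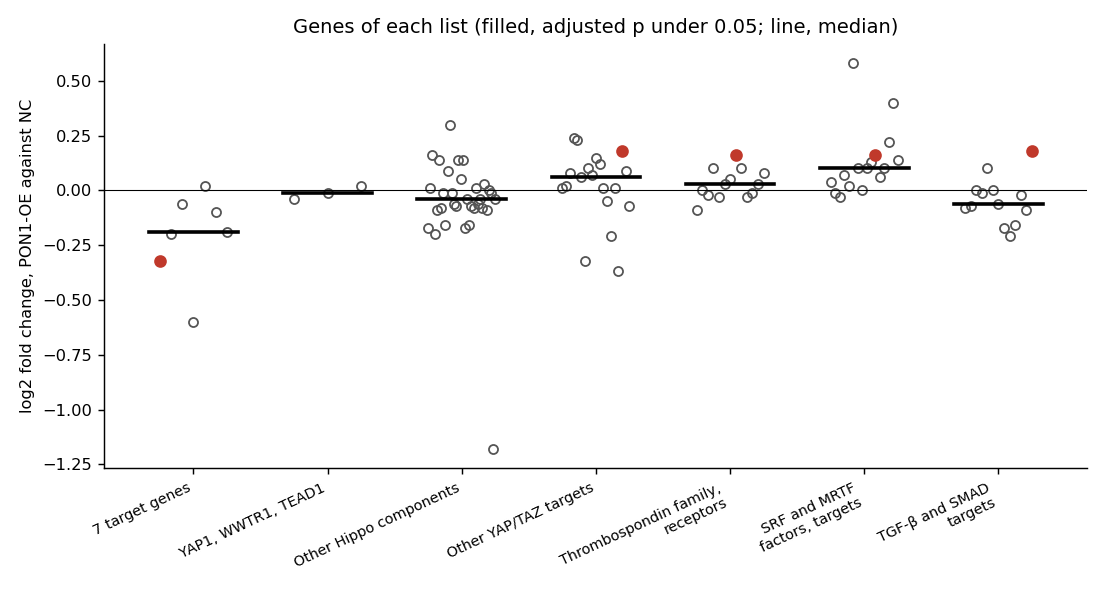
Log2 fold change of each tested gene on the lists (open points; filled where called) with the median of each list (line). The median is −0.192 for the 7 targets, 0.064 for the other YAP/TAZ targets and 0.099 for the SRF and MRTF list.

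Thrombospondin-1 acts through cell surface receptors, among them CD47, CD36 and integrins. Of the list of 17 thrombospondins, receptors and ligands, 13 were tested, and 1 was called, *ITGA3*, an integrin chain that pairs with β1 (7.69%, against 0.677% of all genes). It had 932, 968 and 895 CPM in the NC libraries against 1030, 1040 and 1050 CPM in the PON1-OE libraries, a log2FC of 0.16 (standard error 0.0338, edgeR adjusted p = 0.0294). The call was lost in 5 of the 12 alternatives. These were the replicate block (adjusted p = 0.0846) and the fits that left out the first (0.149) or the third NC library (0.249), or the first (0.0561) or the third PON1-OE library (0.16). The lowest of all 12 was 0.000855.

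*CD47*, the receptor by which thrombospondin-1 inhibits nitric oxide signaling, was at 54.5 ± 2.44 CPM in NC against 54.6 ± 2.25 CPM in PON1-OE. *CD36* was near the detection limit, at 0.695 ± 0.383 and 0.691 ± 0.266 CPM. Among the other thrombospondins, *THBS3* was expressed (69.6 ± 2.12 and 65.3 ± 3.90 CPM, log2FC −0.09, standard error 0.0565). *THBS2* and *THBS4* were at or under the floor of 3 counts in every library. Next in order of p were *ITGA6* (log2FC 0.10, standard error 0.043, adjusted p = 0.406) and *LRP1*, an uptake receptor (0.10, standard error 0.0496, adjusted p = 0.469), both in edgeR.

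Of the other CCN genes, *CCN3* was the 1 of 4 tested, at 0.671 ± 0.233 CPM in NC against 0.621 ± 0.399 CPM in PON1-OE (log2FC −0.12, standard error 0.497). *CCN4*, *CCN5* and *CCN6* had at most 7 counts in any library.

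Several YAP targets also respond to SRF and its MRTF coactivators, which sense actin. Of 19 genes on that list 16 were tested, 13 with a log2FC above 0 and 3 below, with a median of 0.099. *FLNA*, the actin crosslinker filamin A, was the 1 gene called and was higher (6.25%, against 0.677% of all genes). It had 4810, 4880 and 4680 CPM in the NC libraries against 5320, 5370 and 5410 CPM in the PON1-OE libraries, a log2FC of 0.16 (standard error 0.0282, edgeR adjusted p = 0.00795). The adjusted p was 0.06 with the replicate block, 0.0887 without NC replicate 3 and 0.0799 without PON1-OE replicate 3, in a range of 5.38e-06 to 0.0887. At an unadjusted p under 0.05 there were 6 genes, all higher (37.5%, against 5.91% of all genes higher at that p). Since this list too was chosen with earlier results of these data known, nothing is read from that share. *TPM1*, a tropomyosin (log2FC 0.13, standard error 0.0427, adjusted p = 0.211), and *VCL*, vinculin (0.10, standard error 0.035, adjusted p = 0.228), were the next by p. In both the PON1-OE libraries lay above all NC libraries, as in 7 of the 16 tested on the list, with 8.32% of all genes.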

How the data were processed

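RNA-seq of 3 NC and 3 PON1-OE libraries of HCCLM3 cells was analyzed. The authors deposited estimated counts per gene, of which 10.5% of values were not whole, and these were rounded to whole numbers. The submitters' processing notes name HISAT2, Bowtie2 2.2.8, StringTie 1.3.1 and DESeq2, and the genome build is not given in the sources used here. Groups came from the labels. Of 20381 genes, 4824 had no count, and 11958 passed edgeR's expression filter (minimum count 10) and were tested in R 4.3.3 with edgeR 4.0.16 (TMM normalization, quasi-likelihood test) and Benjamini-Hochberg adjustment at 0.05. The study's fold threshold, 0.585 on the log2 scale, was applied separately. CPM values were TMM-normalized. The fit was tested on simulated data. Totals were 15706672 to 17948383 counts per library, and a gene under 3 counts is not measurable. Alternatives were RLE size factors, no filter, 10 counts in every library, a replicate block, each library left out, DESeq2 1.42.0 and limma-voom (limma 3.58.1).

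The 10 genes and the lists of pathway and marker genes were chosen with earlier results of these data known. The genes named were the 10, *PON1*, fixed genes by role (Hippo kinases and adaptors, angiomotins, TEADs, CCN and thrombospondin families, *CD47*, *CD36*), every list gene with an adjusted p under 0.05, up to 3 per list with the smallest p, and the 5 genes nearest to *THBS1*. Marker genes were named as examples. Results of 1 list gene are not reported here. Positions are from GENCODE v29 (GRCh38), and promoters are from RefSeq (GRCh38.p14).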

Additional observations from a re-analysis of the deposited data

How the results depend on the processing

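The log2FC of *THBS1* stayed below 0 in all 12 alternatives, and its call was lost without NC replicate 3 or PON1-OE replicate 1. The 81 genes called over all genes became 177 with no filter and 40 with the replicate block, with 11 to 103 when 1 library was left out, and 1325 passed at an unadjusted p. With the fold threshold 6 genes became 23 with no filter, with 4 to 10 when 1 library was left out. In DESeq2 1 gene passed it. DESeq2 gave no adjusted p to part of the more weakly expressed genes, *PON1* among them, so its number cannot be compared directly with the others. The replicate numbers did not pair the libraries (correlations of same-numbered deviations 0.0651, −0.205 and −0.0957), and 1 of the 6 libraries, PON1-OE replicate 1, correlated best with its own number.

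At an unadjusted p, 4 of the 10 genes (chosen on this contrast, so that nothing is read from their count), 7 Hippo genes, 6 other YAP/TAZ targets, 2 thrombospondin and receptor genes, 6 SRF and MRTF genes and 3 TGF-β genes passed. With the replicate block 0 thrombospondin and receptor genes and 0 SRF and MRTF genes were called, and with no filter or in DESeq2 2 other YAP/TAZ targets were. Leaving out 1 library gave 0 to 2 called among other YAP/TAZ targets and 0 to 1 in each of the 10 genes and the Hippo, thrombospondin, SRF and TGF-β lists. The median of the 7 targets was then −0.182 to −0.137, of the Hippo list −0.05 to −0.009, of *YAP1*, *WWTR1* and *TEAD1* −0.048 to 0.013, of the other YAP/TAZ targets 0.014 to 0.087, of the thrombospondin list 0.01 to 0.049, of the SRF list 0.076 to 0.107 and of the TGF-β list −0.078 to −0.003. With no filter the thrombospondin median was 0.002 and the TGF-β median −0.018.

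Signs that changed were all of genes not called. Leaving out 1 library gave log2FC of −0.36 to 0.29 for *AMOTL1*, −0.6 to 0.31 for *CCN3*, −0.32 to 0.48 for *CD36*, −0.03 to 0.04 for *CD47*, −0.14 to 0.02 for *NF2*, −0.04 to 0.06 for *STK4*, −0.07 to 0.07 for *TEAD3* and −0.07 to 0.03 for *TEAD4*. In limma-voom *AMOTL1* was at 0.02 and *CD36* at 0.05, with the replicate block *CD36* was at 0.01, and *TEAD3* was at 0.0 in both. Of values for single genes, 303 kept direction and side of the threshold. The cause of these shifts was not tested.

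With 3 libraries per group, whose origin is not stated, the log2FC of weakly expressed genes was imprecise, with a standard error of 0.225 for *ANKRD1* and 0.429 for *VGLL3*.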

Other observations

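Thrombospondin-1 activates latent TGF-β, and a list of 15 TGF-β and SMAD response genes was read beside it. Of the 13 tested, 4 had a log2FC above 0 and 9 below, with 51.0% of all genes below 0. The median was −0.056, and −0.003 without PON1-OE replicate 2. This list too was chosen with earlier results of these data known, so nothing is read from these values. A link to *THBS1* was not tested. *ID1* and *ID2*, inhibitors of basic helix-loop-helix factors, had a log2FC of −0.17 (standard error 0.076, adjusted p = 0.415) and −0.21 (standard error 0.098, adjusted p = 0.44) in edgeR. *ID1* was at 63.7 ± 6.41 CPM in NC against 56.6 ± 6.12 CPM in PON1-OE, and *ID2* at 19.6 ± 2.0 and 17.0 ± 1.6 CPM (SD, n = 3).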
